A study of Homo sapiens with 22 samples.

Results

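The collagen genes described here are 40 genes that encode collagen chains, taken by symbol and found as 40 of the 63677 gene rows in each of the deposited tables. By class they comprise 10 fibrillar genes, 6 basement membrane genes (the type IV chains), 9 fibril-associated genes with interrupted triple helices (FACIT) and 15 other genes. Their levels were read in 22 total RNA libraries of a pair of human neuroblastoma cell lines, SH-SY5Y and KELLY, from a study of the neuroblastoma susceptibility locus 6p22.3. That study examined CASC15, which gives long non-coding RNAs, together with the transcription factor SOX9.

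SH-SY5Y cells stably carried a lentiviral shRNA selected with puromycin, and the scrambled controls carried the same kind of vector. The shRNAs were directed against the CASC15-003 transcript (sh003) or the CASC15-004 transcript (sh004), with sh1 and sh2 designs for each. Monolayers were taken undifferentiated in medium with 10% serum (day 0) or after 7 days of retinoic acid, at a dose that the labels give as 10 mM (day 7). For day 7 the labels give serum as 10% in one place and 1% in another. Day 0 had 3 control, 3 sh003 and 2 sh004 libraries, and day 7 had 2 control, 3 sh003 and 2 sh004 libraries. Spheres, grown in sphere medium, gave 1 control, 2 sh003 and 2 sh004 libraries, of which sh004 sh2 carries no culture tag and is placed by its title. Undifferentiated KELLY cells that had received siRNA gave 1 control library and 1 library targeting SOX9, although their treatment text speaks of stable shRNA cells. The labels do not say whether libraries of a group came from separate cultures, so the spread behind each p-value may be technical. Within a knockdown group that spread also mixes shRNA designs and, for sh003 monolayers, the numbered batches of the titles. The shRNA sequences are shown because the libraries of a knockdown group differ by them.
sh003 sh1: ctagcactgacctccttcatt
sh003 sh2: ctttccatcagccaacaatat
sh004 sh1: caggctgttcccagggattta
sh004 sh2: taggaataccttacatccaat

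Collagens are secreted proteins of the extracellular matrix in which chains wind into a triple helix. Fibrillar chains assemble into fibrils, type IV chains into the sheet-like network of basement membranes, type VI chains into beaded microfilaments, and FACIT chains sit on the surface of fibrils. Chains are hydroxylated and folded in the endoplasmic reticulum with dedicated enzymes and chaperones, trimmed by procollagen proteinases, and cross-linked outside the cell by lysyl oxidases. In neuroblastoma, matrix is known mainly as a product of the stroma and of cells in a mesenchymal state, while sympathetic neuroblasts make less of it.

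Libraries held 11.9 to 37.9 M assigned reads in monolayers, 27.8 to 62.1 M in spheres and 24.0 to 25.5 M in KELLY. The 10 sympathetic neuroblast markers summed to 647 to 3755 RPKM (reads per kilobase of gene and M assigned reads) per library, with PHOX2A at 113 to 536 RPKM, but TH, the first enzyme of catecholamine synthesis, was at 0 to 1.57 RPKM in monolayers. The 10 fibroblast and mesenchymal markers summed to 115 to 480 RPKM, with TWIST1 at 45.5 to 209 RPKM and VIM at 30.8 to 221 RPKM, while PRRX1 stayed at or below 0.0812 RPKM. Of the 4 endothelial markers, PECAM1 had 0 reads in all 22 libraries. CDH5 was at 1.495 and 0.636 RPKM in KELLY (control and SOX9 siRNA) and at or below 0.00604 RPKM in SH-SY5Y. VWF and KDR were at or below 0.457 and 0.318 RPKM in all 22 libraries. CASC15 as a gene row, which cannot separate its transcripts, lay between 1.14 and 3.38 RPKM in SH-SY5Y and does not check the knockdown of either transcript. CYP26A1, a retinoic acid target, was at or below 0.271 RPKM in every day 0 library. At day 7 it reached 221 to 687 RPKM in 6 libraries but 9.0 RPKM in sh004 sh2, a library that therefore stands apart at day 7. All sh004 monolayers are of batch 2. In a bulk library fewer cells of a type and less RNA per cell cannot be told apart, which holds for every value below.

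Of the 40 genes, 13 reached RPKM 1 in at least 2 monolayer libraries and so entered the tests. These were 3 of 10 fibrillar, 2 of 6 basement membrane, 3 of 9 FACIT and 5 of 15 other genes. In spheres 15 of 40 passed, and in the KELLY pair 13 of 40 reached RPKM 1 in at least 1 library. Of all 63677 gene rows, the same limits passed 19461 in monolayers, 14711 in spheres and 14340 in KELLY. Of all members, 6 stayed under 0.1 RPKM and 15 under 0.5 RPKM in every one of the 22 libraries.

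**Figure D1:**
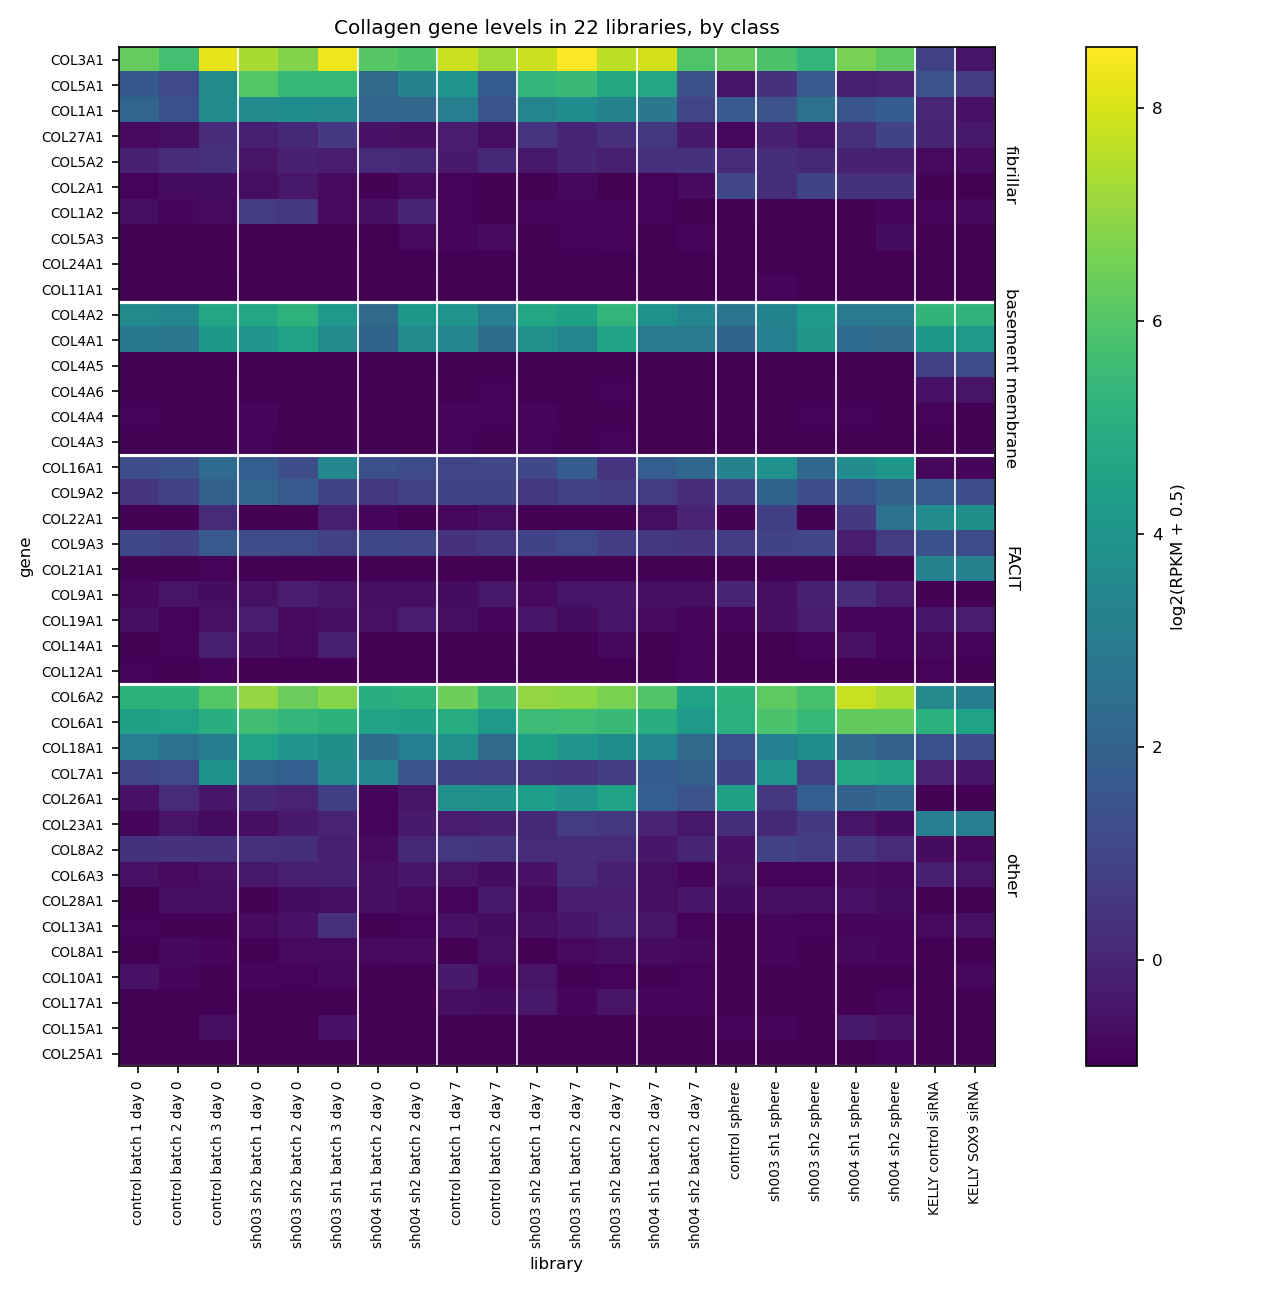
Level of each of the 40 collagen genes (rows, grouped by class) in each of the 22 libraries (columns, grouped by condition), as log2(RPKM + 0.5). COL3A1, COL6A2 and COL6A1 are high in every SH-SY5Y library, COL26A1 is high in day 7 monolayers and the control sphere, and COL21A1, COL22A1 and COL23A1 reach 7.97 RPKM or more only in the KELLY columns among all libraries.

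COL3A1, the chain of type III collagen of soft connective tissue, was the most abundant member in all 15 monolayers and in the control sphere, and made up 29.2 to 60.6% of the summed collagen RPKM of a monolayer. COL6A2, a type VI chain, led in the 4 knockdown spheres. COL4A2, a type IV chain present in nearly all basement membranes, led in both KELLY libraries with 26.7% and 29.5% of the sum. The order of the classes differed between the lines. Summed fibrillar RPKM was 57.4 to 436 in monolayers, 49 to 102 in spheres and 2.05 to 4.75 in KELLY. Summed basement membrane RPKM was 8.31 to 62.5, 9.87 to 34.3 and 56.5 to 57.3, and summed FACIT RPKM was 3.75 to 14.4, 8.53 to 26.7 and 25.8 to 26.0 in the same order. Fibrillar sums of the lines thus did not overlap, whereas the basement membrane sums of KELLY lay inside the monolayer range. The tables were made separately, so levels across them were not tested.

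Chains that share a trimer were often present unequally. COL1A1 and COL1A2 together make type I collagen, the main fibril of bone and tendon. COL1A1 was at 1.5 to 12.2 RPKM in monolayers while COL1A2 was at 0.00553 to 1.12 RPKM, so that the ratio of their RPKM ran from 7.89 to 447, and from 71.4 to 1229 in spheres. COL5A2, the usual partner of COL5A1 in type V collagen, stayed at 0.208 to 0.795 RPKM in monolayers. COL6A3, the large chain of type VI collagen, stayed at 0.0414 to 0.637 RPKM there, against 17.2 to 49 RPKM for COL6A1 and 22.8 to 131 RPKM for COL6A2. The RPKM ratio of COL6A2 to COL6A1 was 1.33 to 3.22 in monolayers and 0.320 to 0.329 in KELLY. COL4A1 and COL4A2, which form the common type IV trimer, stayed close in every library, with a ratio of COL4A2 to COL4A1 of 1.11 to 2.28.

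COL26A1, which encodes a secreted collagen with an EMI domain, was the 1 tested member called after retinoic acid, by the threshold given below. In controls it was at 0.187, 0.598 and 0.238 RPKM at day 0 (batches 1, 2 and 3) and at 13.5 and 14.7 RPKM at day 7 (batches 1 and 2). With sh003 it was at 0.549, 0.447 and 1.20 RPKM at day 0 (sh2 batch 1, sh2 batch 2 and sh1 batch 3) and at 19.5, 22.6 and 15.2 RPKM at day 7 (sh2 batch 1, sh2 batch 2 and sh1 batch 2). With sh004 it was at 0.0569 and 0.219 RPKM at day 0 and at 3.17 and 2.26 RPKM at day 7 (sh1 and sh2). All 7 day 7 libraries lay above all 8 day 0 libraries. The same held for COL17A1, which was too low to be tested. It was at or below 0.0262 RPKM (0 to 2 reads) at day 0 and at 0.0492 to 0.283 RPKM (9 to 37 reads) at day 7. How many of all genes separate the pooled days in this way was not counted. For COL26A1 the sh004 pair was the lowest at day 7, while at day 0 its values overlapped those of the controls. The day 0 values rest on few reads, as few as 5 in a library.

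Its promoter window in RefSeq (GRCh38.p14, plus strand, chr7:101362625-101362924, from 250 bases before to 50 bases after the annotated start) is shown because the gene is the one member called in all 3 retinoic acid comparisons. The motifs searched, on both strands and with any match in capitals, were the retinoic acid receptor half-site AGGTCA, the GC box GGGCGG, the CCAAT box CCAAT and the TATA box TATAAA.
COL26A1 promoter: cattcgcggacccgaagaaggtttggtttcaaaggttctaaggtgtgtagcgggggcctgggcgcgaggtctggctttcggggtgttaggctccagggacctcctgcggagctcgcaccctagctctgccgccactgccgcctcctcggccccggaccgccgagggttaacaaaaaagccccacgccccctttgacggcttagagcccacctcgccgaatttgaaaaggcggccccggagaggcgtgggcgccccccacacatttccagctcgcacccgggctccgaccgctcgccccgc
None of these letter strings occurs in the window, which says only that these letters are not there. AGGTCA occurs in 13.8% of 35116 RefSeq windows of this length and in 1 of the 30 member genes that have a window, COL7A1. GGGCGG occurs in 45.0% of all windows and in 19 of the 30, CCAAT in 34.6% and in 11, and TATAAA in 11.5% and in 6. The percentages count windows, whereas a member gene counts as matched if any of its windows matches, so the units differ.

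Differences below are on the log2(RPKM + 0.5) scale from limma fitted across all genes, with the standard error and the Benjamini-Hochberg adjusted p over all genes tested, and a gene was called at an adjusted p under 0.05. The offset of 0.5 understates changes of low genes. From day 0 to day 7, COL26A1 rose by 4.15 in controls (SE 0.31, adjusted p = 0.000124), by 4.02 with sh003 (SE 0.27, adjusted p = 4.6e-05) and by 2.33 with sh004 (SE 0.33, adjusted p = 0.0148). It was the 1 member called of 13 in each comparison, beside 0.956%, 2.35% and 0.38% of 19461 genes. Within batches, the control difference was 4.35 in batch 1 and 3.79 in batch 2, and that of sh003 4.25 and 4.33. With batch as a block the same 1 member was called in each, beside 7.68%, 14.3% and 2.11% of genes. The sh004 call did not hold without sh004 sh1 at day 0 (adjusted p = 0.167), without sh004 sh2 at day 0 (0.0978), without sh004 sh1 at day 7 (0.102), or on batches 2 and 3 alone (0.0606). It held without sh004 sh2 at day 7, the library with little CYP26A1, at 2.53 (adjusted p = 0.032).

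**Figure D2:**
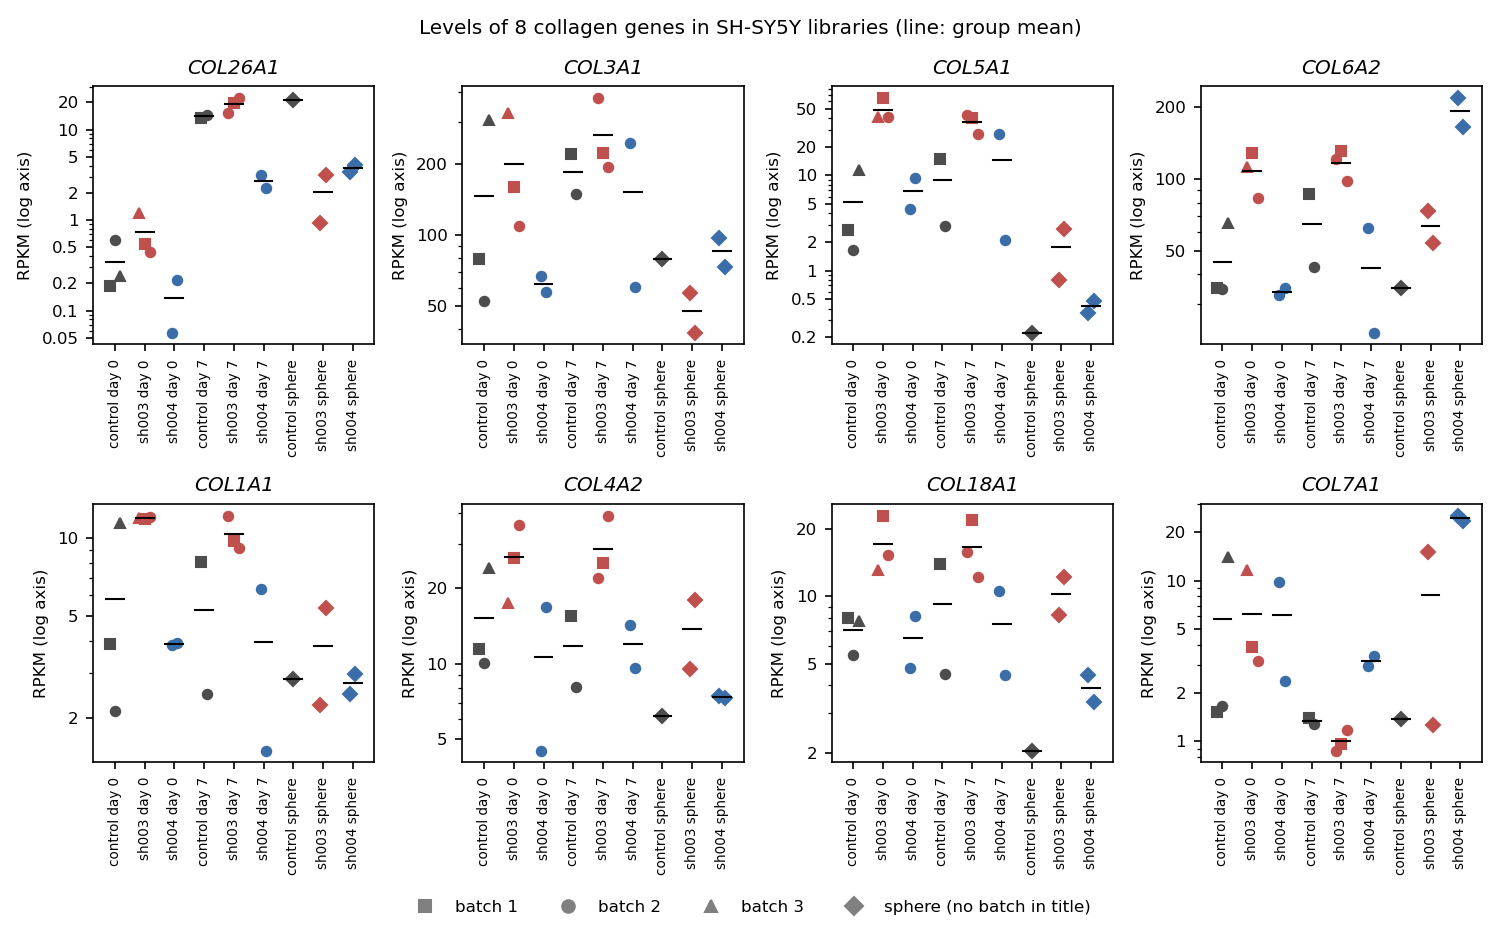
RPKM (log axis) of 8 collagen genes in each SH-SY5Y library, by group, with points for libraries, shapes for the batch in the title and lines for group means. COL26A1 separates the days in every arm, with day 7 values of 2.26 to 3.17 RPKM with sh004 and 13.5 to 22.6 RPKM in the other arms, and COL5A1 is higher in every sh003 library than in any control library of the same day.

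No other member was called after retinoic acid. Among fibrillar genes, COL3A1 was at 79.5, 52.6 and 306 RPKM in day 0 controls and at 221 and 149 RPKM at day 7, a difference of 0.74 (SE 0.76, adjusted p = 0.773). Its control values overlap between days because batch 3, present only at day 0, is high; the differences within batches 1 and 2 were 1.47 and 1.5. COL3A1 with sh003 was at 160, 109 and 328 RPKM at day 0 and at 223, 194 and 380 RPKM at day 7, and with sh004 at 66.9 and 57.4 RPKM and then 245 and 60.7 RPKM. With sh004 nearly all of the gain lay in sh1, and the fitted differences were 0.51 with sh003 and 0.97 with sh004. COL7A1, the chain of the anchoring fibrils that tie epithelial basement membrane to the tissue beneath, was at 1.53, 1.67 and 14.1 RPKM in day 0 controls and at 1.39 and 1.29 RPKM at day 7, a difference of -1.12 (adjusted p = 0.612). The high day 0 value is that of batch 3, and the differences were -0.10 and -0.28 within batches 1 and 2 and -0.39 with the block. With sh003 it was at 3.85, 3.15 and 11.7 RPKM at day 0 and at 0.965, 1.17 and 0.877 RPKM at day 7, a difference of -1.95 (SE 0.73, adjusted p = 0.176), or -1.21 with the block. These sh003 groups do not overlap, and the difference was -0.58 with sh004.

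The FACIT genes gave mostly negative values without a call. COL16A1, a chain found near fibrils and fibrillin, was at 1.91, 2.07 and 4.61 RPKM in day 0 controls and at 1.52 and 1.57 RPKM at day 7. Its differences were -0.63 in controls, -1.10 with sh003 and 0.75 with sh004. With the block they were -0.14 in controls and -0.59 with sh003. COL9A2 and COL9A3 encode chains of type IX collagen, which coats cartilage fibrils. COL9A3 differed by -0.75 in controls (SE 0.26, adjusted p = 0.218), -0.21 (-0.205 before rounding) with sh003 and -0.56 with sh004, and COL9A2 by -0.87 with sh003. The remaining values at RPKM 1 or above that were largest in a comparison were 0.77 for COL5A1 and 0.50 for COL6A2 in controls, -0.40 for COL5A1 with sh003, and 0.39 for COL4A2 and 0.29 for COL5A1 with sh004. Of the 13 tested members 5, 5 and 9 were higher at day 7 in the control, sh003 and sh004 comparisons, with medians of -0.125, -0.111 and 0.126 beside 0.146, 0.051 and 0.018 over all genes. With batch as a block 6, 9 and 9 were higher, and the sh003 median was 0.05. Without the block, 2, 3 and 1 members had an unadjusted p under 0.05, beside 2733, 3598 and 1601 of 19461 genes. Groups did not overlap for 4, 3 and 3 members. Of these 1, 1 and 2 were higher at day 7, beside 17.7%, 14.9% and 20.9% of all genes, and 3, 2 and 1 lower, beside 9.44%, 8.7% and 18.1%.

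**Figure D3:**
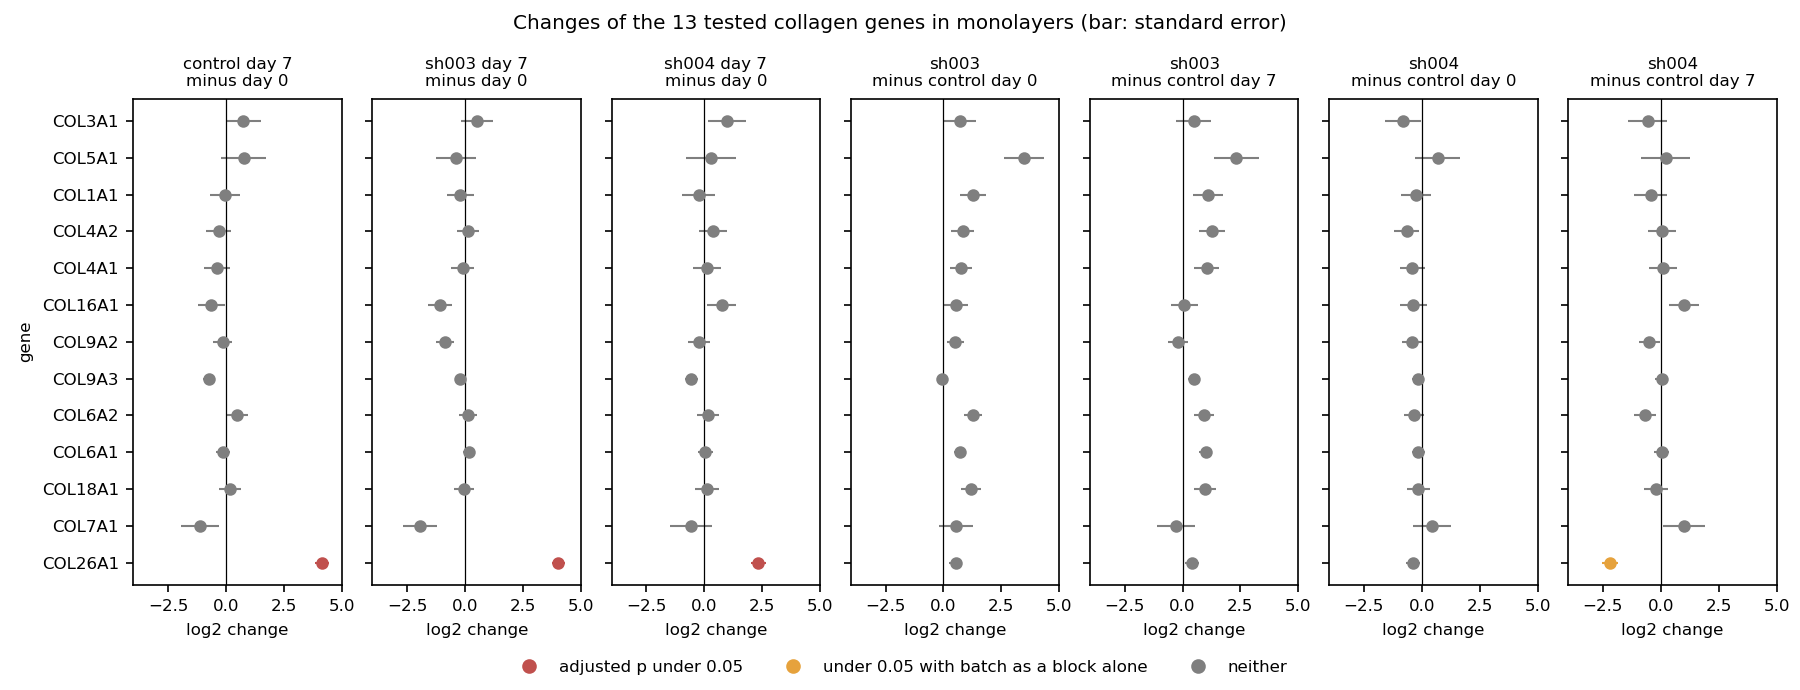
Fitted log2 difference of each of the 13 tested collagen genes (rows) in the monolayer comparisons, with standard errors as bars, in red where called and in orange where called only with batch as a block. COL26A1 stands at 4.15, 4.02 and 2.33 in the retinoic acid comparisons, and most members lie to the right of 0 for sh003 against control on both days without a call.

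With sh003, most tested collagens had higher fitted levels than control, but no member was called on either day by limma. At day 0, 12 of 13 were higher (median 0.715 beside -0.057 over all genes). Within batches 1, 2 and 3 of day 0, 13, 11 and 8 of 13 were higher, and batch 3 is that of sh1. At day 7, 11 of 13 were higher (median 0.924 beside -0.091), as were 11 within batch 1 and 11 within batch 2. The calls over all genes were 0.00514% at day 0 and 0.0% at day 7, so the background itself was close to empty. At an unadjusted p under 0.05 there were 5 members at day 0 and 3 at day 7, beside 1125 and 1405 of 19461 genes. In voom on recovered reads 0 members were called on both days. Groups did not overlap for 5 members at day 0, with 5 higher beside 3.91% of all genes and 0 lower beside 5.12%. At day 7 they did not overlap for 9 members, with 7 higher beside 9.16% and 2 lower beside 13.6%. With batch as a block 0 members were called beside 0.252% of genes at day 0, and 0 beside 0.00514% at day 7.

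Among the fibrillar chains the widest gap was that of COL5A1, which helps to start fibrils and set their width. COL5A1 was at 2.65, 1.64 and 11.3 RPKM in day 0 controls and at 65.3, 41.0 and 40.6 RPKM with sh003. At day 7 it was at 15 and 2.95 RPKM in controls and at 39.5, 27.4 and 42.8 RPKM with sh003. Every sh003 value exceeded every control value of its day. The difference was 3.49 at day 0 (SE 0.87, adjusted p = 0.446; with the batch block, adjusted p = 0.128). The day 7 difference was 2.32 (SE 0.98, adjusted p = 0.645). Within batches 1, 2 and 3 at day 0 it was 4.39, 4.28 and 1.80, and within batches 1 and 2 at day 7 it was 1.37 and 3.33. Batch 3 of day 0 is also the batch of sh1, so design and batch cannot be told apart there. COL1A1 was at 3.87, 2.13 and 11.5 RPKM in day 0 controls and at 11.8, 12.1 and 11.9 RPKM with sh003, a difference of 1.27 (SE 0.57, adjusted p = 0.854). Its sh003 values were tight and lay just above the batch 3 control, and the difference within batches was 1.5, 2.25 and 0.05. At day 7 COL1A1 was at 8.05 and 2.47 RPKM in controls and at 9.77, 9.14 and 12.2 RPKM with sh003, a difference of 1.10.

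The type VI chains showed narrower gaps. COL6A2 was at 35.0, 34.8 and 65.9 RPKM in day 0 controls and at 129, 83.6 and 112 RPKM with sh003. The groups do not overlap, and the difference was 1.29 (SE 0.39, adjusted p = 0.570; with the block, 0.162). At day 7 COL6A2 was at 86.9 and 42.8 RPKM in controls and at 131, 98.9 and 121 RPKM with sh003. COL6A1 was at 21.6, 22.4 and 32.1 RPKM in day 0 controls and at 49, 39.5 and 34.9 RPKM with sh003. At day 7 COL6A1 was at 30.1 and 17.3 RPKM in controls and at 47.0, 43.0 and 48.3 RPKM with sh003, a difference of 0.99 (0.995 before rounding; SE 0.29, adjusted p = 0.566).

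In the basement membrane class, COL4A2 was at 11.4, 10.1 and 24.1 RPKM in day 0 controls and at 26.5, 35.9 and 17.5 RPKM with sh003. COL4A1 followed it, at 6.84, 6.39 and 16.6 RPKM in controls and at 15.3, 22.2 and 11.4 RPKM with sh003. Both were above control in batches 1 and 2, which hold sh2, and below control in batch 3, which holds sh1: the differences within batches were 1.18, 1.79 and -0.46 for COL4A2 and 1.10, 1.72 and -0.53 for COL4A1. The fitted differences were 0.84 and 0.76 at day 0. At day 7 COL4A2 was at 15.5 and 8.11 RPKM in controls and at 25.3, 39.0 and 21.9 RPKM with sh003 (difference 1.27), and COL4A1 at 9.70 and 4.76 RPKM and at 13.4, 23.4 and 9.63 RPKM (difference 1.03). COL18A1, counted among the other genes, whose chain is a basement membrane proteoglycan and the source of endostatin, was at 8.0, 5.45 and 7.75 RPKM in day 0 controls and at 22.9, 15.3 and 13 RPKM with sh003. The day 0 groups do not overlap, and the difference was 1.20 (SE 0.43, adjusted p = 0.710). At day 7 the groups overlap, with 14.0 and 4.5 RPKM in controls and 22, 12.2 and 15.8 RPKM with sh003 (difference 0.97). Of the exon bases of COL18A1, 16.4% overlap the antisense gene SLC19A1, and whether the counting used strand is not given in the sources used here.

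COL4A1 and COL4A2 are read away from each other from starts 126 bases apart on chromosome 13, and their promoter windows share 226 bases. The COL4A2 window (RefSeq, GRCh38.p14, plus strand, chr13:110307034-110307333) is shown because the levels of both genes ran together across libraries (Pearson r of 0.967 over the 15 monolayers, a description over libraries that share batches). Capitals mark its matches to the motifs above, a CCAAT box and a GC box.
COL4A2 promoter: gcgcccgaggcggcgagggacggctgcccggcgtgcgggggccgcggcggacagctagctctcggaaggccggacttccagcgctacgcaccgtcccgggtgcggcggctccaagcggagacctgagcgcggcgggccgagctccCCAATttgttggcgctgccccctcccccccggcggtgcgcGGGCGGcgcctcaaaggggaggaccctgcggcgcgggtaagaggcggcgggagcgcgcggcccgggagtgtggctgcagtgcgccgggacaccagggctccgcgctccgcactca
The other type IV genes are also arranged head to head. COL4A3 and COL4A4, with starts 418 bases apart, were at or below 0.0395 and 0.0667 RPKM in all 22 libraries. COL4A5 and COL4A6, whose nearest annotated starts lie 379 bases apart, were at or below 0.0124 and 0.0373 RPKM in SH-SY5Y. In KELLY COL4A5 was at 1.27 and 1.94 RPKM and COL4A6 at 0.186 and 0.214 RPKM, so these head-to-head genes differed in level there.

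Markers of fibroblast and mesenchymal cells moved with the sh003 values. Of the 10 listed, 9 were tested, and 9 of 9 had higher fitted levels with sh003 on both days (medians 0.578 and 0.774), with 0 called by limma. At an unadjusted p under 0.05 there were 3 and 5 of them, beside 1125 and 1405 of 19461 genes. The summed RPKM of the 10 markers was 202 to 325 in control and 286 to 480 in sh003 libraries at day 0, and 115 to 229 and 279 to 325 at day 7. DCN, a fibroblast proteoglycan, was at 0.250, 0.268 and 0.332 RPKM in day 0 controls. With sh003 DCN was at 6.78, 8.71 and 3.93 RPKM at day 0 (called with the batch block). PRRX1, also on the list, was by contrast near 0 in all libraries. Neuroblast markers leaned the other way, with 2 of 9 tested higher at day 0 (median -0.277) and 3 of 9 at day 7 (median -1.34), 0 called and 1 and 3 at an unadjusted p under 0.05. DBH, the enzyme that makes noradrenaline, was at 247 and 167 RPKM in day 7 controls and at 48.9, 33.2 and 16.6 RPKM with sh003. The part of either marker list in the collagen values was not tested.

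With sh004 at day 0, 2 of 13 members were higher than control, and 0 were called by limma (0.0% of genes) or by voom. At an unadjusted p under 0.05 there were 0 members, beside 378 of 19461 genes. Groups did not overlap for 0 members, beside 7.66% of all genes higher and 10.1% lower. The median was -0.346 beside -0.066 over all genes. With batch as a block 7 of 13 were higher with a median of 0.017, and 0 were called beside 0.0% of genes. COL3A1 gave -0.81 (SE 0.76), or -0.06 with the block. COL5A1, at 4.41 and 9.30 RPKM, gave 0.69, or 1.42 with the block. COL7A1, at 9.82 and 2.39 RPKM, gave 0.44, or 1.20 with the block (unadjusted p = 0.0369 in limma). COL9A2 gave -0.42 with and without the block. The sh004 shRNAs differed for type IV chains: COL4A2 was at 4.51 RPKM with sh1 and 16.9 RPKM with sh2, and COL4A1 at 3.75 and 11.7 RPKM, so that sh1 lay below all 3 controls and sh2 within their range. The control of batch 2, the batch of both sh004 libraries, lay between them at 10.1 and 6.39 RPKM. Fitted differences of COL4A2 and COL4A1 were -0.65 (-0.645 before rounding) and -0.41 (-0.405 before rounding), or -0.55 and -0.27 with the block.

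With sh004 at day 7, COL26A1 was the member that differed most from control, at 3.17 and 2.26 RPKM against 13.5 and 14.7 RPKM. The difference was -2.20 (SE 0.33, adjusted p = 0.188) and was not called beside 0.0% of genes. With batch as a block it was -2.26 (SE 0.34, adjusted p = 0.0345) and was called, the 1 member of 13, beside 0.226% of genes. The blocked call was lost in 10 of 15 fits that left out 1 library, sh004 sh2 at day 7 among them. Without that library the unblocked difference was -1.99 (adjusted p = 0.361). That library had 9.0 RPKM of CYP26A1. At day 7 sh004 sh1 had 301 RPKM of CYP26A1, within the range of the other arms, and 3.17 RPKM of COL26A1. For CYP26B1 and RARB, the other listed markers of retinoic acid exposure, sh004 sh1 was at 782 and 38.4 RPKM. Both values lay below those of every day 7 control and sh003 library (930 to 1162 and 42.75 to 77.2 RPKM). The part of retinoic acid exposure in the COL26A1 difference was not tested.

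Over the 13 tested members at day 7 with sh004, 7 were higher than control and voom called 0. At an unadjusted p under 0.05 there was 1, COL26A1, beside 1564 of 19461 genes. With the block in limma COL18A1 went from -0.20 to 0.20, and COL16A1 had an unadjusted p of 0.0289. Groups did not overlap for 4 members, COL26A1 included: 2 were higher, beside 10.8% of all genes, and 2 lower, beside 22.1%. COL16A1 was at 3.12 and 4.19 RPKM against 1.52 and 1.57 RPKM in controls, a difference of 1.01, and COL7A1 at 2.93 and 3.39 RPKM against 1.39 and 1.29 RPKM, a difference of 0.99. Both knockdown libraries lay above both controls for each gene. COL6A2, at 62.5 and 22.8 RPKM, gave -0.68, COL3A1 gave -0.57, COL9A2 gave -0.49 and COL1A1, at 6.37 and 1.5 RPKM, gave -0.45 (-0.445 before rounding). For the fibrillar genes sh1 was far above sh2 at day 7, at 27.2 against 2.08 RPKM for COL5A1 and 245 against 60.7 RPKM for COL3A1.

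Whether the response to retinoic acid differed between arms was tested directly. For COL26A1 the difference of responses was -0.13 between sh003 and control (SE 0.41, adjusted p = 1.00) and -1.82 between sh004 and control (SE 0.45, unadjusted p = 0.00197, adjusted p = 1.00). No member was called by limma in either test, beside 0.0% and 0.0% of genes, and voom called 0. At an unadjusted p under 0.05 there were 0 and 1 members, beside 284 and 284 of 19461 genes. With batch as a block 0 members were called beside 0.0% and 0.0103% of genes.

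Of 32 genes for collagen folding, trimming, cross-linking and secretion, 26 were tested. ADAMTS2, which removes the amino-terminal propeptide of fibrillar procollagens, rose with retinoic acid in sh003 cells from a mean of 4.34 to 72.3 RPKM, by 4.68 (SE 0.83, adjusted p = 0.0175), the 1 gene of the list called. In controls its mean went from 1.39 to 35.3 RPKM, a difference of 4.27 (SE 0.93, adjusted p = 0.0678), called with the batch block at 5.01 (adjusted p = 0.004). In sh004 cells it went from 0.876 to 12.2 RPKM, a difference of 2.97 (adjusted p = 0.432). Also called in sh003 cells only with the block were LOXL4, a lysyl oxidase, at 1.85 (adjusted p = 0.0269), and the collagen receptors DDR2 at 1.10 (adjusted p = 0.011) and ITGA1 at 2.15 (adjusted p = 0.0161). ADAMTS3, a related proteinase, gave -1.10 with retinoic acid in sh003 cells, and P4HB, a prolyl hydroxylase subunit, gave -0.39 in controls, both uncalled.

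For sh003 against control, 24 of 26 of these genes were higher at day 0 (median 0.509) and 25 of 26 at day 7 (median 0.636), with 0 called by limma. At an unadjusted p under 0.05 there were 10 and 13 of them, beside 1125 and 1405 of 19461 genes. At day 0 the largest values were those of ADAMTS3 at 1.51 (1.515 before rounding), LOXL2 at 1.03, SPARC, a collagen-binding matrix protein, at 1.02 (1.025 before rounding) and BMP1, the carboxy-terminal procollagen proteinase, at 0.98. At day 7 they were those of PCOLCE2 at 1.81, SPARC at 1.61 (1.615 before rounding), SERPINH1, the collagen chaperone HSP47, at 1.21 and ADAMTS2 at 1.12. ITGA2, a collagen-binding integrin chain, gave 1.81 at day 0 and 1.54 at day 7. For sh004 against control, 13 of 26 were higher at day 0 and 17 of 26 at day 7. DDR1, a collagen receptor kinase, had 0 RPKM in all 4 batch 1 libraries and 9.43 to 30.4 RPKM in the other 11 monolayers, so its fitted values carry large errors.

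The genes whose pattern over the 15 monolayers was most like that of the leading member of each class were, by Pearson r, IL17RC (0.938), DNM3OS (0.931) and PLCD1 (0.928) for COL3A1. For COL4A2 they were COL4A1 (0.967), RELN (0.897) and PDE4A (0.884). For COL16A1 they were CCL21 (0.901), IP6K3 (0.877) and an unnamed gene (0.870). For COL6A2 they were OSBPL5 (0.960), LTBP2 (0.954) and FKBP10 (0.953), the last a collagen folding enzyme of the list above. These values describe libraries that share batches and arms.

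In spheres the knockdown arms differed from each other in 4 of 15 tested members, beside 39.9% of 14711 genes. COL6A2 was at 73.6 and 54.4 RPKM with sh003 and at 220 and 166 RPKM with sh004 (sh1 and sh2 in each), lower with sh003 by a difference of -1.59 (SE 0.24, adjusted p = 0.00893). COL3A1 was at 56.9 and 38.7 RPKM against 97.6 and 73.5 RPKM, a difference of -0.84 (SE 0.26, adjusted p = 0.0435). COL18A1 was at 8.25 and 12.2 RPKM against 4.44 and 3.39 RPKM, higher with sh003 by 1.26 (SE 0.27, adjusted p = 0.0160). COL4A1 was at 8.16 and 16.3 RPKM against 4.56 and 4.51 RPKM, higher by 1.26 (SE 0.33, adjusted p = 0.0286). Groups did not overlap for 10 of 15 members, with 5 higher beside 42.9% of all genes and 5 lower beside 33.0%. The share of members called does not exceed that of all genes.

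**Figure D4:**
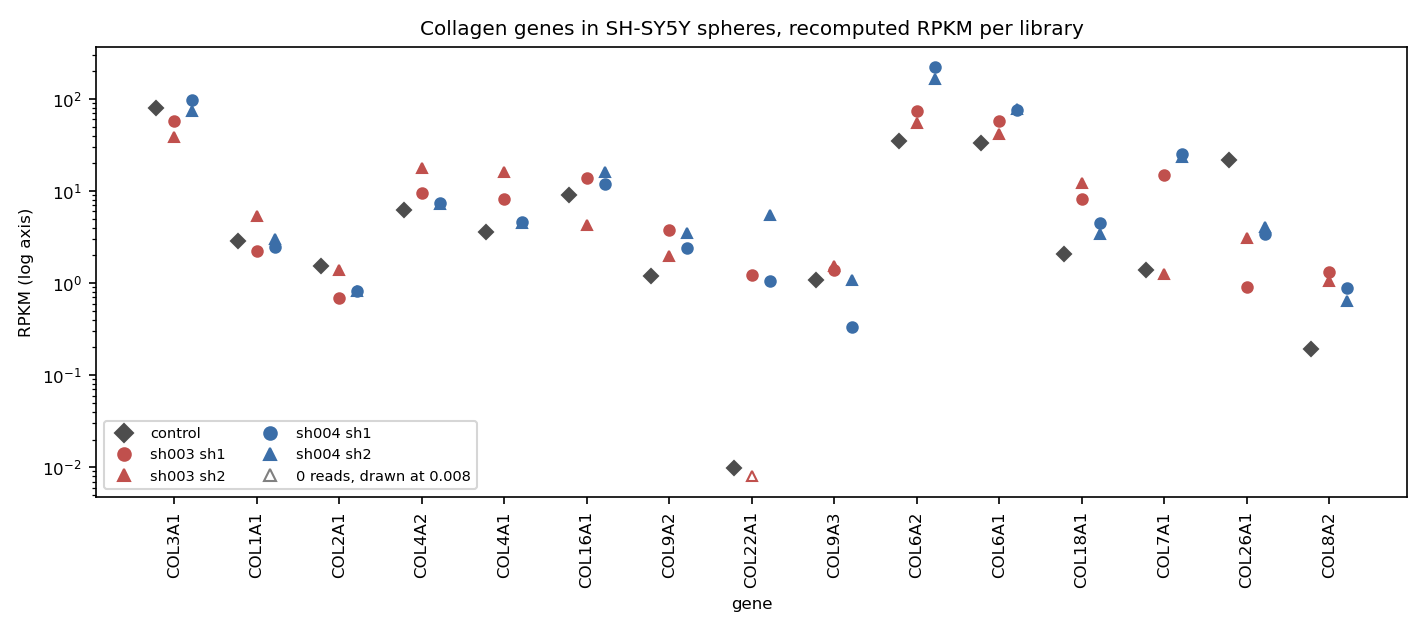
RPKM (log axis) of the 15 tested collagen genes in the 5 sphere libraries, with 1 point per library, coloured by arm, and an open symbol for 0 reads. COL6A2 and COL6A1 are higher in both sh004 spheres than in the other 3, COL18A1 and COL4A1 are higher in both sh003 spheres, and COL26A1 is at 21.5 RPKM in the control sphere and at 0.917 to 4.09 RPKM in the 4 knockdown spheres.

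The number of members called between knockdown spheres rested on single libraries, being 0 without sh004 sh2, 8 without sh003 sh1, 2 without sh003 sh2 and 2 without sh004 sh1. Median-ratio scaling moved the median of all genes from 0.127 to -0.009, and the calls over all genes from 3395 higher and 2470 lower to 2676 higher and 3007 lower. The uncalled members were led by COL7A1, at 15.1 and 1.26 RPKM with sh003 and 25.4 (25.45 before rounding) and 23.6 RPKM with sh004, a difference of -2.25 (SE 0.91, adjusted p = 0.0918). COL22A1, a FACIT chain of tissue junctions, was at 1.23 and 0 RPKM against 1.05 (1.055 before rounding) and 5.48 RPKM, a difference of -1.71. COL26A1 gave -0.91, COL16A1 -0.81, COL4A2 0.79 and COL9A3 0.77. COL6A1, at 57.1 and 41.8 RPKM against 76.0 and 77.5 RPKM, gave -0.65 (adjusted p = 0.0532). Fibroblast markers were higher with sh003 for 6 of 6 tested, with PDGFRB called, and neuroblast markers for 8 of 10, with CHGB, GATA3, DBH and GATA2 called. Their part was not tested.

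Against the single control sphere, taken to vary as much as the knockdown libraries do, no member was called by limma with either knockdown, beside 0.0% of genes for sh003 and 0.129% for sh004. At an unadjusted p under 0.05 there were 6 and 5 members, beside 2811 and 3268 of 14711 genes, and voom called 0 members in each. COL26A1 was at 21.5 RPKM in the control sphere, at 0.917 and 3.13 RPKM with sh003 and at 3.44 and 4.09 RPKM with sh004. The control lay above all 4 knockdown spheres, and the differences were -3.28 (SE 0.54, adjusted p = 0.159) and -2.37 (SE 0.54, adjusted p = 0.118). The 2 comparisons share that control. COL6A2 was at 35.1 RPKM in the control sphere and gave 2.43 with sh004 (SE 0.29, adjusted p = 0.0689). COL6A1, at 33.6 RPKM, gave 1.18. COL7A1, at 1.39 RPKM, gave 3.73 with sh004 (SE 1.12, adjusted p = 0.150) and 1.47 with sh003.

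COL18A1, at 2.05 RPKM in the control sphere, gave 2.05 with sh003 (SE 0.33, adjusted p = 0.159), and COL4A1, at 3.63 RPKM, gave 1.54 (1.545 before rounding). COL4A2, at 6.21 RPKM in the control and 9.5 and 18 RPKM with sh003, gave 1.02. COL8A2, a short-chain collagen of corneal membrane, gave 1.28 from 0.193 RPKM. With sh004, COL22A1 gave 2.58 from 0.00987 RPKM and COL9A2 gave 1.02 (1.025 before rounding). Of 15 members 11 were higher than control with each knockdown, and both counts rest on the same control sphere. The medians over all 14711 genes were -0.003 with sh003 and -0.156 with sh004. COL2A1, the cartilage fibril chain, was at 0.688 to 1.55 RPKM in spheres and at or below 0.267 RPKM in monolayers. COL5A1, abundant in sh003 monolayers, was at 0.223 RPKM in the control sphere, 0.804 and 2.71 RPKM with sh003 and 0.363 and 0.480 RPKM with sh004, and did not enter the sphere tests.

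Of the processing genes, 12 of 24 were called between sh003 and sh004 spheres, and 3 of 5 receptors, where 39.9% of all genes were called. The 7 higher with sh003 included ADAMTS3 at 1.93, PCOLCE2 at 1.91, FKBP14, a collagen prolyl isomerase, at 1.59, P4HA1, a prolyl hydroxylase subunit, at 1.25, MIA3, which loads procollagen for export, at 1.19 and LOXL2 at 1.06. LOXL3 was the seventh, at 0.92. The 5 lower were ADAMTS14 at -1.47 (-1.465 before rounding), PCOLCE at -1.40, PPIB at -1.26, P3H3 at -0.88 and FKBP10 at -0.73. The receptors were higher with sh003, namely ITGA2 by 1.46, DDR2 by 1.21 and ITGB1 by 0.96.

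KELLY is a line with amplified MYCN, and MYCN was at 787 RPKM with the control and 1052 RPKM with the SOX9 siRNA. SOX9 was at 5.61 RPKM with the control and 0.974 RPKM with the SOX9 siRNA. With 1 library per group there is no replicate check, and the 95% exact (Clopper-Pearson) intervals of read ratios below cover counting error only. COL3A1 was the 1 member of 13 past 2-fold, beside 4.0% of 14340 genes. It went from 1.36 RPKM (236 reads) to 0.226 RPKM (37 reads), a depth-adjusted read ratio of 0.166 (interval 0.114 to 0.236) and a log2 difference of -1.36 on RPKM + 0.5. In contrast to its place in SH-SY5Y, COL3A1 was 0.949% of the collagen sum in the control library. The 13 members had 1 RPKM or more in at least 1 of the 2 libraries, and COL3A1 reached it only in the control library. COL1A1, at 0.508 RPKM (127 reads) with the control and 0.191 RPKM (45 reads) with the SOX9 siRNA, was below this limit.

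**Figure D5:**
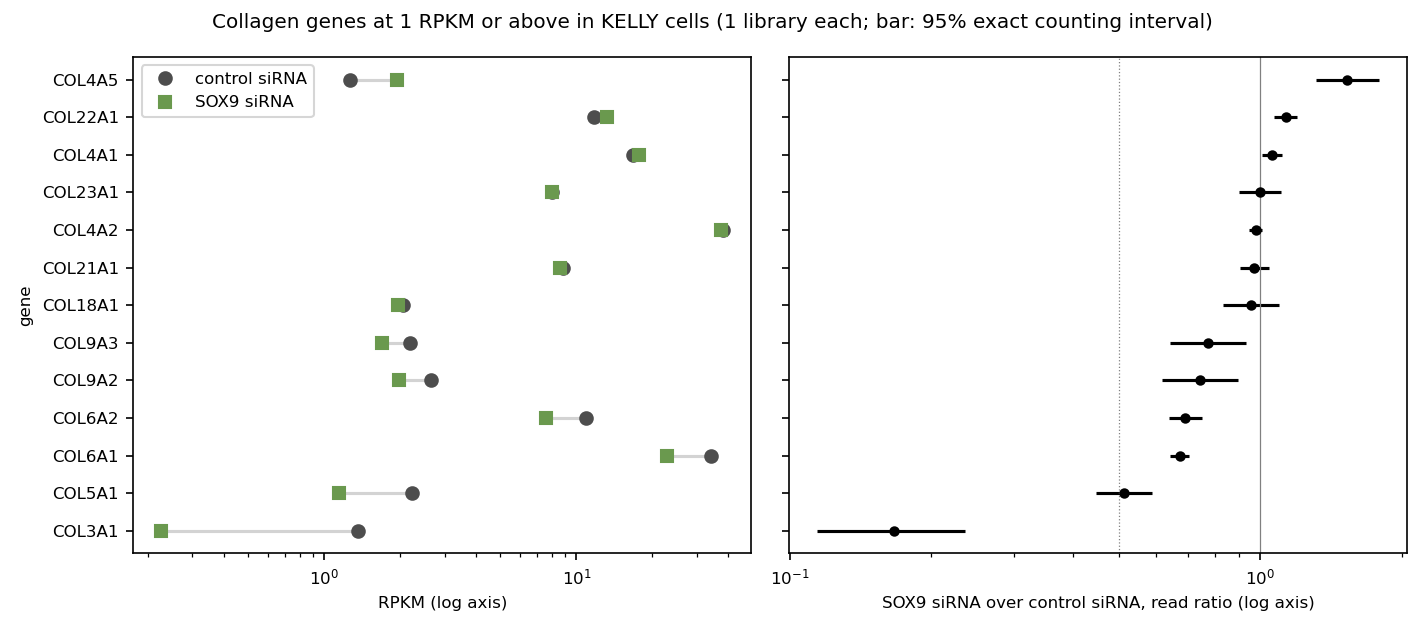
The 13 collagen genes at or above 1 RPKM in a KELLY library, with RPKM per library (left, log axis) and the read ratio of SOX9 siRNA to control siRNA with its 95% counting interval (right, log axis, dotted line at a ratio of 0.5). COL3A1 lies at 1.36 and 0.226 RPKM with a ratio of 0.166, and COL4A2, COL4A1, COL21A1 and COL23A1 lie near equal levels.

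Of the abundant KELLY members, the type IV chains differed little between the libraries, and the type VI chains were lower with the SOX9 siRNA. COL4A2 was at 38.2 and 37.4 RPKM (read ratio 0.978, interval 0.946 to 1.01) and COL4A1 at 16.8 and 17.7 RPKM (1.06, interval 1.01 to 1.11). COL6A1 was at 34.0 and 22.9 RPKM (0.674, interval 0.643 to 0.706) and COL6A2 at 10.9 and 7.55 RPKM (0.693, interval 0.638 to 0.752). COL5A1 was at 2.24 and 1.15 RPKM (0.513, interval 0.446 to 0.589), a log2 difference of -0.73. COL6A1, COL6A2 and COL5A1 were thus lower with the SOX9 siRNA beyond counting error, within 2-fold on the scale used.

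KELLY cells also held members that were low in SH-SY5Y monolayers. COL22A1 was at 11.7 and 13.3 RPKM, COL21A1, a FACIT chain of vessel walls, at 8.84 and 8.58 RPKM, and COL23A1, a transmembrane collagen, at 8.0 and 7.97 RPKM. In SH-SY5Y monolayers these were at or below 0.626, 0.0354 and 1.07 RPKM, and in spheres at or below 5.48, 0.00430 and 1.04 RPKM. Their read ratios were 1.13 (interval 1.07 to 1.20), 0.971 and 0.997. COL4A5 gave 1.53 (interval 1.31 to 1.79) and COL9A2, at 2.66 and 1.98 RPKM, 0.744 (interval 0.617 to 0.896). COL26A1 had 0 reads in both KELLY libraries, which allows up to 0.0373 and 0.0396 RPKM. Of the 13 members 3 were higher with the SOX9 siRNA, with a median of -0.052 beside 0.05 over all genes.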

How the data were processed

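Total RNA of SH-SY5Y and KELLY cells was sequenced with a stranded kit that removes ribosomal RNA, per the labels' protocols. The submitters' processing notes name TopHat, featureCounts, Subread and build hg19, with no versions or order. The authors deposited RPKM in 3 tables. All values gave whole reads within 0.01 of a whole number once library totals were estimated. For the spheres, 10 totals rotate from gene to gene, so sphere RPKM was recomputed from the reads with each library's own total. Of 172 deposited collagen values above 0, 20 equalled the recomputed ones within 0.001, and the ratio of deposited to recomputed values ran from 0.447 to 2.43. Of 63677 identifiers, 52181 were named from the reference tables, including all 40 members. Promoter windows come from RefSeq, for 30 of 40 members.

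limma 3.58.1 in R 4.3.3, with a mean-variance trend, was fitted to log2(RPKM + 0.5) for genes with at least 2 libraries at RPKM 1 or higher. Each table's groups shared 1 estimate of the spread (9 residual degrees of freedom in monolayers, 2 in spheres), with Benjamini-Hochberg adjustment over all genes. Samples were grouped by title. For 2 sh003 libraries (sh1 batch 2 day 7 and sh2 batch 1 day 0) the differentiation tag contradicts the title, and CYP26A1 matched the titles. Libraries of the same batch deviated alike: deviations from group means correlated at 0.716 to 0.942 in 16 control and sh003 pairs of the same batch. In 29 pairs of other batches they ran from -0.92 to 0.744 (median -0.792), with the positive values between batches 2 and 3. Deviations within a group sum to 0, which partly forces negative values between batches. A fit blocked on batch, with 7 residual degrees of freedom, is given beside the calls of members and some other counts and differences. Counts at an unadjusted p under 0.05 are those of the fit without the block.

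Named were the 12 members with the highest monolayer mean, members at a mean of 5 RPKM or more in a sphere or KELLY group, called members, and up to 6 uncalled members per comparison with the largest difference at a mean of 1 RPKM or more. The members, lists and rules were chosen with earlier results of these data known. Alternatives were a pseudocount of 0.1, no filter, median-ratio scaling, voom on recovered reads, the deposited sphere RPKM, the block, and leaving out libraries. Batches 2 and 3 alone, and leaving out libraries with the block, were added after seeing the data. The fit without the block was also run on simulated counts with known changes. Those counts held no batch differences, so that run does not cover the batch spread of these libraries.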

Additional observations from a re-analysis of the deposited data

How the results depend on the processing

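Across 74 results, 1172 of 1236 alternative values kept their direction and side of the threshold, 21 lost it, 19 gained it, 1 moved and 23 reversed, the last in 15 results that were not called. The number of members called after retinoic acid ran from 1 to 2 in controls, 1 to 2 with sh003 and 0 to 2 with sh004 when single libraries were left out, with or without the block, and was 0 with sh004 on batches 2 and 3 alone. For sh003 against control it ran from 0 to 2 at day 0 (COL5A1 and COL6A2, with the block and without an sh004 day 7 library) and from 0 to 1 at day 7 (COL6A1). For sh004 against control at day 7 it ran from 0 to 1, and was 1 (COL26A1) with the replicate block and 1 without a filter. The replicate block changed no other count of members called.

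In spheres the number ran from 0 to 2 for sh003 against control (2 without sh003 sh2), from 0 to 3 for sh004 against control (3 without either sh003 sphere) and from 0 to 8 between the knockdowns. With the deposited RPKM it was 1 (COL26A1), 2 (COL22A1 and COL7A1) and 2 (COL22A1 and COL7A1), and without a filter it was 0 between the knockdowns.

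The uncalled values that reversed on batches 2 and 3 alone were, for retinoic acid in controls, COL5A1 at -0.54 and COL6A2 at -0.16, for sh004 against control COL7A1 at -0.05 at day 0 and COL1A1 at 0.32 at day 7. With the block COL5A1 after retinoic acid with sh003 was 0.04, and with the deposited RPKM COL4A2 between knockdown spheres was -0.33. Leaving out single libraries gave, for retinoic acid in controls, COL5A1 from -0.32 to 1.85 and COL6A2 from -0.01 to 1.0, and with sh004 COL3A1 from -0.03 to 1.97, COL7A1 from -1.5 to 0.34, COL4A2 from -0.51 to 1.29 and COL5A1 from -1.43 to 2.0. For sh004 against control at day 0 it gave COL4A2 from -1.54 to 0.25, COL7A1 from -0.48 to 1.38 and COL4A1 from -1.16 to 0.36, and at day 7 COL6A2 from -1.4 to 0.03, COL3A1 from -1.57 to 0.43 and COL1A1 from -1.34 to 0.45. For sh003 against the control sphere COL7A1 ran from -0.1 to 3.04. The cause was not tested. Depth limits COL26A1 at day 0, where libraries held as few as 5 reads, and the KELLY members at 0 reads.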
